A study of Zea mays with 8 samples.

Results

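The genes described here encode glutamine synthetase, glutamate synthase and glutamate dehydrogenase in the growing leaf of maize. The set was defined by 10 names, not by a cut on measured values, but with earlier results of these data known. Of these, 6 were found as written in the deposited table and covered 7 of its 43110 loci, because GRMZM2G375064 labels 2 loci. The names GRMZM2G098290, GRMZM2G024104, GRMZM2G050514 and GRMZM2G036609 were not matched as written. RefSeq lists them as synonyms of genes that the table carries under symbols on the same chromosomes: the GLN2 locus of chromosome 10, already in the set, the GLN2 locus of chromosome 1, GLN6 and GLSF. With GRMZM2G036464 and GRMZM5G885867, the symbol and synonym search gave 5 further loci of the family, which are described beside the 7 members and counted apart from them.

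The plants were maize inbred B73 in hydroponic culture, and RNA came from leaf 6. The supply was 4 mM nitrogen (HN) or 0.04 mM nitrogen (LN), and from each supply the division zone, where cells divide, and the elongation zone, where they lengthen, were taken. Each of the 4 groups had 2 libraries, which the series describes as biological replicates; plant age, the number of plants behind a library and any pooling are not stated. The p-values rest on the spread between these pairs of libraries, pooled over the 4 groups and moderated by that of other loci. A group's spread therefore also enters comparisons that do not include it. No variation beyond these libraries is measured. Each zone is a mixture of cell types, so fewer cells of a type and less RNA per cell cannot be told apart.

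Values were read as FPKM, a unit that neither header nor labels state, which means fragment counts normalised to locus length and to library size, so that levels of different genes can be compared per length. Group levels are means ± SD (n = 2 libraries). A change is a difference of log2(FPKM + 1) with its standard error, which understates changes of loci near 1 FPKM. A locus is said to rise or fall only at a Benjamini-Hochberg adjusted p under 0.05 in limma, fitted to the 24706 loci whose mean reached 1 FPKM in any of the 4 groups. Of the 7 members 6 passed that filter, as did 5 of 5 further family loci. The loci detected at 1 FPKM or more numbered 21136 to 22119 per library; read depth is unknown. The HN elongation libraries differed most from each other, with a median SD between replicates of 0.27 on the log2 scale against 0.10 to 0.15 in the other groups.

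Glutamine synthetase joins ammonium to glutamate, using ATP, to make glutamine. Glutamate synthase (GOGAT) then passes the amide group to 2-oxoglutarate, which regenerates glutamate, and draws electrons from reduced ferredoxin or from NADH. Plants have a plastid glutamine synthetase, GS2, known for assimilating ammonium from nitrite reduction and photorespiration, and a family of cytosolic enzymes, GS1, known for ammonium recycling and for moving nitrogen between organs. Glutamate dehydrogenase, in mitochondria, mainly returns glutamate to 2-oxoglutarate and ammonium.

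Of the glutamine synthetase loci, gs2, gs1-1 and gs1-2 fell under low nitrogen in both zones, whereas gs1-3 and gs1-4, the most abundant GS1 transcripts, had changes above 0 that were not called in either zone. GDH1 also fell in both zones. In the division zone 2 of 6 members tested fell and 0 rose, and 2 of 5 further loci fell and 0 rose, where 3.27% of all loci fell, 1.81% rose and 5.09% were called in either direction. The counts in the elongation zone were equal, at 2 of 6 members and 2 of 5 further loci falling with 0 rising, where 12.5% of all loci fell, 9.86% rose and 22.4% were called. At an unadjusted p under 0.05, 3 members in the division and 2 in the elongation zone were lower and 0 were higher. Of all 24706 loci tested, 5786 in the division and 9879 in the elongation zone had such a p, in either direction. The median change of the 6 members was -0.30 in the division and -0.38 in the elongation zone, and that of all loci tested was -0.01 and 0.07. Scaling the libraries to equal totals moved the median of all loci to 0.14 in the division and 0.43 in the elongation zone, and the share of higher changes among those called from 35.6 to 62.2% and from 44.1 to 77.6%.

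**Figure D1:**
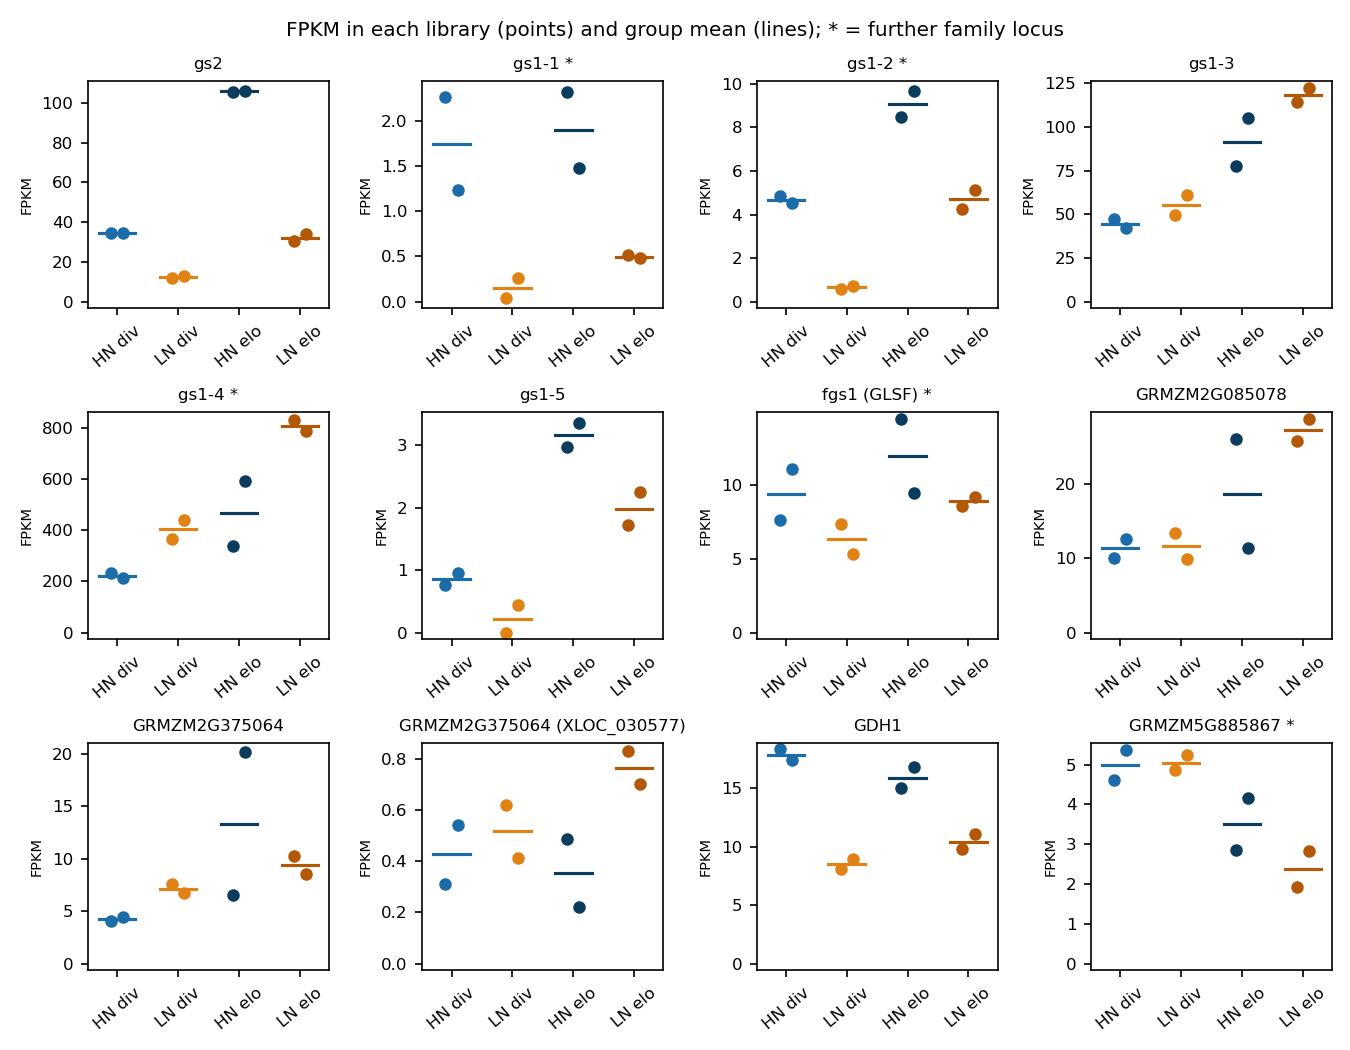
FPKM of the 7 member loci and the 5 further family loci (marked with an asterisk) in each of the 8 libraries, on linear axes that differ between panels; points are libraries, lines group means, div the division and elo the elongation zone. The HN points of gs2 lie above the LN points in each zone, at 34.5 against 12.04 and 13.2 FPKM in the division zone, and the LN points of gs1-4 lie above the HN points; the panel GRMZM2G375064 without a suffix is XLOC_032277.

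The plastid gene, here called gs2 after its RefSeq synonym, is the locus GLN2 (XLOC_009297; chromosome 10, 145900760 to 145906241 on B73 RefGen_v3). Both HN libraries of the division zone stood at 34.5 FPKM, against 12.04 and 13.2 FPKM at low nitrogen. In the elongation zone both HN libraries gave 106 FPKM, and the LN libraries 30.3 and 33.8 FPKM. The HN and LN libraries did not overlap in either zone. The means were 2.74-fold lower under low nitrogen in the division zone (log2 change -1.39 ± 0.13, limma adjusted p = 0.00667) and 3.30-fold lower in the elongation zone (-1.70 ± 0.13, adjusted p = 0.00258).

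The fall of gs2 in the division zone was no longer called when HN division replicate 1 or 2 or LN division replicate 1 or 2 was left out (adjusted p = 0.0710, 0.0760, 0.0543 and 0.0524; range over the 8 libraries left out in turn, 0.00717 to 0.0760), while the change stayed between -1.44 and -1.33. For the elongation zone it was called with each of the 8 libraries left out, and missed the threshold when the elongation groups were fitted alone (adjusted p = 0.0562, against 0.00200 to 0.0562 over the settings other than left-out libraries). That fit called 0.181% of all loci.

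A second locus, GRMZM5G885867 (XLOC_009298; chromosome 10, 145906651 to 145910554), begins 409 bases beyond the end of gs2 and is matched to the same RefSeq gene. Its levels were 4.61 and 5.36 FPKM in HN and 4.87 and 5.23 FPKM in LN division libraries, which overlapped (log2 change 0.02 ± 0.21). In the elongation zone it measured 2.87 and 4.17 FPKM at high and 1.94 and 2.83 FPKM at low nitrogen (-0.41 ± 0.21, limma adjusted p = 0.188). Its change was not called in either zone. Another locus on the span of gs2, GRMZM2G098279 (XLOC_007874), was listed at 0 in all 8 libraries.

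The summed level of markers of photosynthetic blade cells was, like gs2, lower at low than at high nitrogen in each zone. The list of 18 loci, 15 of them tested, summed to 1188 to 1270 FPKM in HN and 505 to 710 FPKM in LN division libraries, and to 8919 to 15847 FPKM and 2699 to 4827 FPKM in the HN and LN elongation libraries. Of the 15 tested, 3 fell in the division and 13 in the elongation zone under low nitrogen, and 0 rose in either. Of all loci, 3.27% fell and 1.81% rose in the division zone, and 12.5% fell and 9.86% rose in the elongation zone. The division count was 1 without any one of the 4 division libraries, 5 without HN elongation replicate 1 or 2 and 7 with the division groups alone. The elongation count was 6 and 8 without LN elongation replicate 1 and 2, 8 without HN elongation replicate 2 and 2 with the elongation groups alone. Their part in the gs2 result was not tested.

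The cytosolic genes gs1-1 and gs1-2 are weakly expressed. GLN6, the gs1-1 locus (XLOC_003587; chromosome 1, 27978351 to 27982007), measured 2.26 and 1.24 FPKM in the division zone at high nitrogen, against 0.0383 and 0.267 FPKM at low nitrogen. Its elongation values were 2.32 and 1.48 FPKM at high and 0.514 and 0.485 FPKM at low nitrogen. The libraries of the 2 supplies did not overlap. It fell in both zones (-1.24 ± 0.25, adjusted p = 0.0436, and -0.94 ± 0.25, adjusted p = 0.0417, limma). Both calls lie near the threshold. With the 8 libraries left out in turn, the division zone call was made 2 times, without HN elongation replicate 1 or 2 (adjusted p from 0.0271 to 0.215). The elongation zone call was made 1 time, without HN elongation replicate 2 (0.0450 to 0.158), and was missed after scaling to equal totals (0.0797), with the pseudocount of 0.1 (0.0739) and with the elongation groups alone (0.102). With no filter or the division groups alone, the division zone call was missed (0.0515 and 0.0583).

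The gs1-2 locus, also named GLN2 in the table (XLOC_005784; chromosome 1, 267953427 to 267963551), gave 4.84 and 4.53 FPKM in HN and 0.594 and 0.722 FPKM in LN division libraries. The corresponding elongation values were 8.48 and 9.65 FPKM at high and 4.27 and 5.12 FPKM at low nitrogen. Its means were 7.12-fold lower in the division zone (-1.78 ± 0.16, limma adjusted p = 0.00523) and 1.93-fold lower in the elongation zone (-0.82 ± 0.16, adjusted p = 0.0160). The division zone call was missed without HN division replicate 1 or 2 (adjusted p = 0.0630 and 0.0619), and the elongation zone call without LN elongation replicate 1 or 2 (0.112 and 0.0617), after scaling to equal totals (0.0962) and with the elongation groups alone (0.0849). Its span is shared with GRMZM2G023289 (XLOC_002657), which stood at 67.9 and 84.1 FPKM in HN and 36.3 and 31.6 FPKM in LN division libraries and also fell there (-1.14 ± 0.17, adjusted p = 0.0212). In the elongation zone the change of GRMZM2G023289 was not called (-0.38 ± 0.17, limma adjusted p = 0.154). Like gs1-2 it rose from the division to the elongation zone, by 0.77 at high and 1.53 at low nitrogen. The strand setting of the counting is not stated, so reads of these 2 loci may not be separate.

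The abundant cytosolic genes had values at low nitrogen above those at high nitrogen in both zones, without passing the threshold. Both, gs1-3 and gs1-4, are known from maize mutants to matter for kernel production. GRMZM2G036464, the gs1-4 locus (XLOC_022870; chromosome 4, 167111248 to 167114579), was the highest of the 12 loci in each group, with 232 and 212 FPKM in HN against 365 and 440.1 FPKM in LN division libraries, and 337 and 593 against 828 and 786 FPKM in the elongation zone. The log2 changes were 0.85 ± 0.30 in each zone (limma adjusted p = 0.152 and 0.0844). They were called, as 1.05 and 1.32, after scaling of the libraries to equal totals (adjusted p = 0.0124 and 0.00319), with the median of all loci at 0.14 and 0.43. The division zone change was also called without HN elongation replicate 1 or 2, fits that called a larger share of all loci in that zone. Without HN elongation replicate 2, the higher of its pair, the change in the elongation zone was 1.26 (adjusted p = 0.0183; range 0.0183 to 0.271).

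GRMZM5G872068, the gs1-3 locus (XLOC_028427; chromosome 5, 205293914 to 205297428), measured 47.1 and 42.5 FPKM at high and 49.7 and 61.0 FPKM at low nitrogen in the division zone. Its elongation values were 77.9 and 105 FPKM at high and 114 and 122 FPKM at low nitrogen. The changes, 0.29 ± 0.20 and 0.38 ± 0.20, had 95% intervals of -0.17 to 0.76 and -0.08 to 0.85 (adjusted p = 0.423 and 0.191, limma). They too were called after scaling to equal totals, as 0.49 and 0.84 (adjusted p = 0.0376 and 0.00456).

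GRMZM2G046601, the gs1-5 locus (XLOC_041195; chromosome 9, 146319631 to 146328499), was the weakest GS1 locus in the HN division zone, at 0.758 and 0.953 FPKM, and at low nitrogen there it was listed at 0 and 0.440 FPKM. It stood at 2.97 and 3.36 FPKM in the HN and 1.72 and 2.25 FPKM in the LN elongation libraries. Its LN values lay below its HN values in each zone, but the changes of -0.63 ± 0.22 and -0.48 ± 0.22 were not called (limma adjusted p = 0.154 and 0.155). The coding sequences of GS1 genes are alike, and how reads matching several of them were assigned is not stated, so low values beside a highly expressed relative are uncertain.

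**Figure D2:**
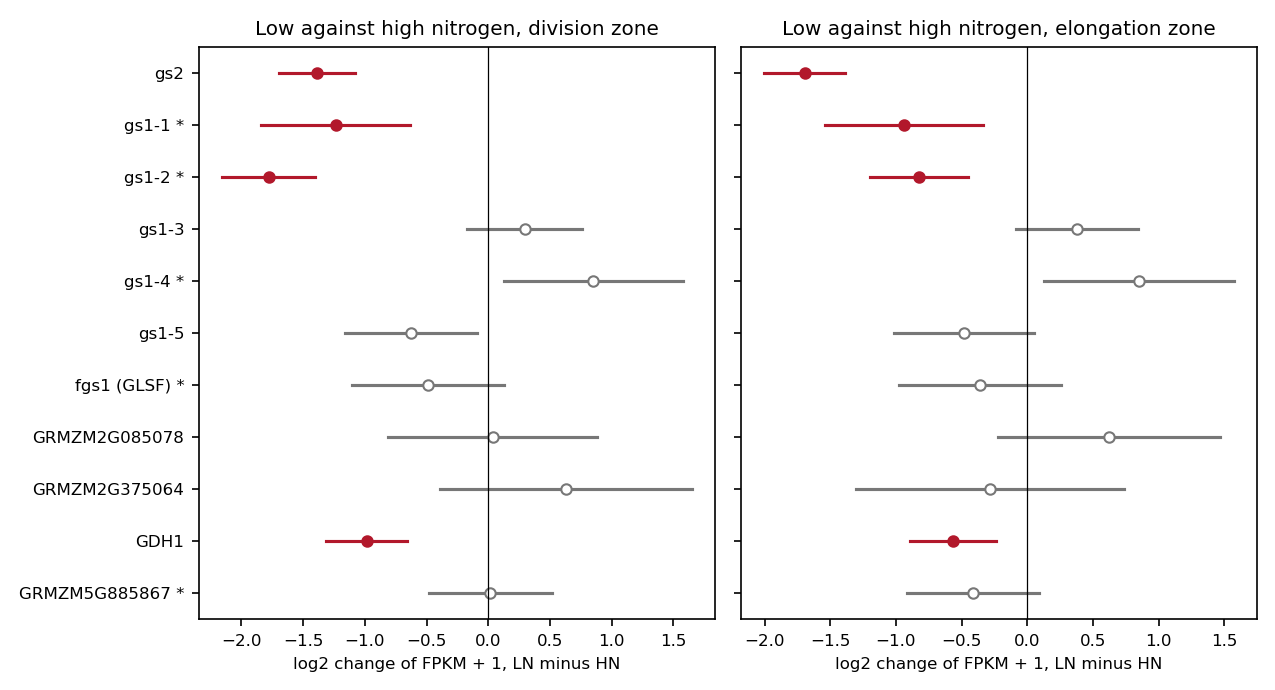
Difference of log2(FPKM + 1), low minus high nitrogen, for the 11 tested loci in the division zone (left) and the elongation zone (right), with 95% intervals from limma; filled points have an adjusted p under 0.05 and asterisks mark further family loci. The 4 filled points in each panel, gs2, gs1-1, gs1-2 and GDH1, lie below 0.

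The makeup of the glutamine synthetase transcripts can be read as shares within each library, where scaling between libraries plays no part. The sums themselves, when compared between groups, do depend on that scaling. The 6 loci from gs1-1 to gs1-5 and gs2 summed to 309 ± 17.9 FPKM in the HN and 472 ± 62.2 FPKM in the LN division group, and to 677 ± 201 and 964 ± 20.5 FPKM in the elongation groups. Of these sums, gs2 took 10.7 and 11.7% in HN division and 2.82 and 2.55% in LN division libraries. In the elongation zone its share was 19.8 and 13.0% at high and 3.10 and 3.56% at low nitrogen. The LN shares lay below the HN shares in each zone, without overlap. GRMZM5G885867, matched to the same RefSeq gene as gs2, is left out of these sums and shares. Its means were 4.98 FPKM in HN and 5.05 FPKM in LN division libraries, and 3.52 and 2.38 FPKM in the elongation zone.

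The share of gs1-4 went the other way, from 72.2 and 71.7% in HN to 85.4 and 85.3% in LN division libraries and from 63.1 and 72.4% to 84.6 and 82.8% in the elongation zone. As a ratio of levels, gs1-4 was 6.72 and 6.15 times gs2 in HN division and 30.3 and 33.4 times gs2 in LN division libraries. The ratios in the elongation zone were 3.19 and 5.59 at high and 27.3 and 23.2 at low nitrogen. The share of gs1-3 was 14.7 and 14.4% in HN and 11.6 and 11.8% in LN division libraries, without overlap. Its elongation shares overlapped, at 14.6 and 12.8% at high and 11.7 and 12.9% at low nitrogen. With 2 libraries against 2, an exact permutation test of a single such value cannot go below a two-sided p of 0.333, so these shares are given without a test.

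**Figure D3:**
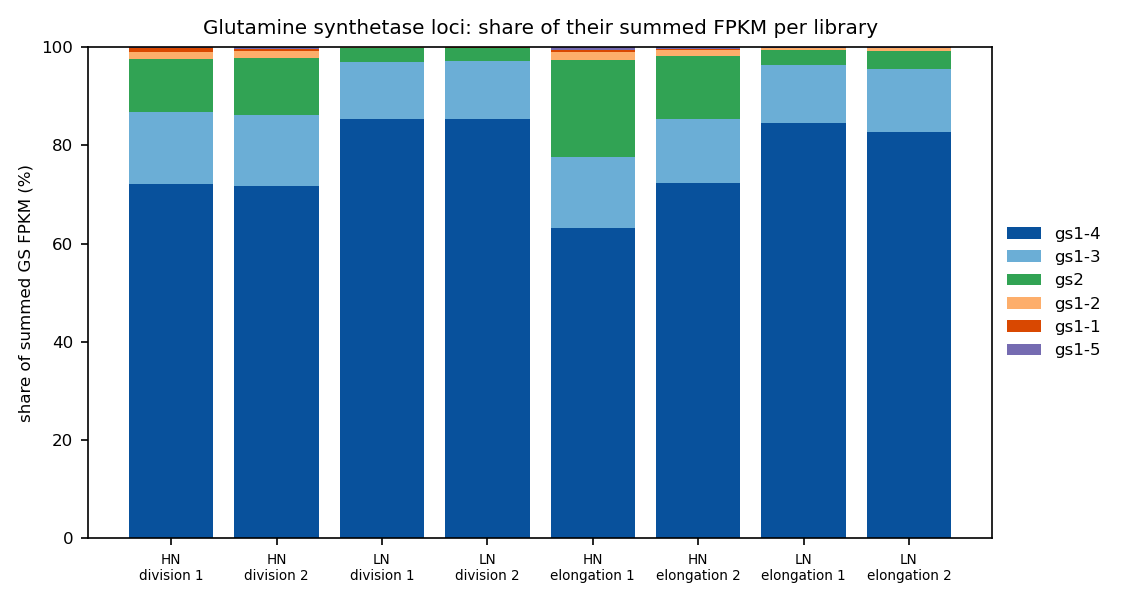
Share of the summed FPKM of 6 glutamine synthetase loci (in percent) taken by each locus in each of the 8 libraries, as stacked bars from 0 to 100. The green gs2 segment takes 10.7 to 19.8% in the HN libraries and 2.55 to 3.56% in the LN libraries.

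Of the 3 tested glutamate synthase loci 0 were called under low nitrogen in either zone by limma, where 5.09% of all loci were called in the division and 22.4% in the elongation zone, so nothing particular to these loci can be read from that count. At an unadjusted p under 0.05 the count was also 0, against 5786 of 24706 loci in the division and 9879 in the elongation zone. The ferredoxin enzyme, known as the main leaf form, is GLSF, with the RefSeq synonym fgs1 (XLOC_035723; chromosome 7, 171002271 to 171021085). It gave 7.62 and 11.0 FPKM in HN and 7.35 and 5.32 FPKM in LN division libraries. Elongation libraries gave 14.4 and 9.42 FPKM at high and 8.58 and 9.14 FPKM at low nitrogen. The LN values lay below the HN values in each zone, by log2 changes of -0.49 ± 0.26 and -0.36 ± 0.26 (limma adjusted p = 0.316 and 0.333). The second value turned to 0.06 after scaling to equal totals.

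GRMZM2G085078 and GRMZM2G375064 belong to the set as glutamate synthases; the gene table used here does not annotate them, so the electron donor of each is not named. GRMZM2G085078 (XLOC_016571; chromosome 3, 208411765 to 208423641) stood at 10.0 and 12.6 FPKM in HN and 13.4 and 9.97 FPKM in LN division libraries (0.03 ± 0.36, adjusted p = 0.979, limma). Its HN elongation libraries were far apart, at 26.1 and 11.3 FPKM, and the LN libraries gave 25.7 and 28.7 FPKM (0.62 ± 0.36, adjusted p = 0.232). Without HN elongation replicate 1 that change was 1.19 and was called, in a fit that called a larger share of all loci in that zone.

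GRMZM2G375064 labels 2 loci that share a span on chromosome 6 (163414060 to 163426486). XLOC_032277 measured 4.08 and 4.47 FPKM in HN and 7.58 and 6.72 FPKM in LN division libraries, which did not overlap (0.63 ± 0.43, limma adjusted p = 0.438). This change was called without HN elongation replicate 1 or 2, fits that called a larger share of all loci in the division zone. Its HN elongation libraries gave 6.52 and 20.2 FPKM and its LN elongation libraries 10.3 and 8.57 FPKM (-0.28 ± 0.43, adjusted p = 0.659). The value in HN elongation replicate 2 decided the direction: without it the change was 0.46, and without replicate 1 it was -1.03. The latter change was called, in a fit that called a larger share of all loci in the elongation zone. XLOC_030577, the untested member, lay between 0.222 and 0.830 FPKM in the 8 libraries.

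GDH1 (XLOC_006047; chromosome 1, 287360596 to 287367735) was at 18.3 and 17.4 FPKM in HN and 8.13 and 8.95 FPKM in LN division libraries. It gave 15.1 and 16.8 FPKM in HN and 9.77 and 11.1 FPKM in LN elongation libraries, again without overlap. The means were 2.09-fold lower at low nitrogen in the division zone (-0.98 ± 0.14, limma adjusted p = 0.0177) and 1.53-fold lower in the elongation zone (-0.57 ± 0.14, adjusted p = 0.0319). The elongation zone call ended with equal totals (-0.13, adjusted p = 0.501) and with the elongation groups alone (0.129). Of the 8 libraries left out in turn, it was made without 1, HN elongation replicate 1 (adjusted p from 0.0179 to 0.170). The division zone call was made without 2 of the 8, HN elongation replicate 1 or 2 (0.0128 to 0.142), while the change stayed between -1.05 and -0.92.

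The span of GDH1 is shared with GRMZM2G478798 (XLOC_002944). That locus measured 7.53 and 6.23 FPKM in HN and 3.51 and 5.48 FPKM in LN division libraries (-0.54 ± 0.26, limma adjusted p = 0.279), so the values of both may not be independent.

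**Figure D4:**
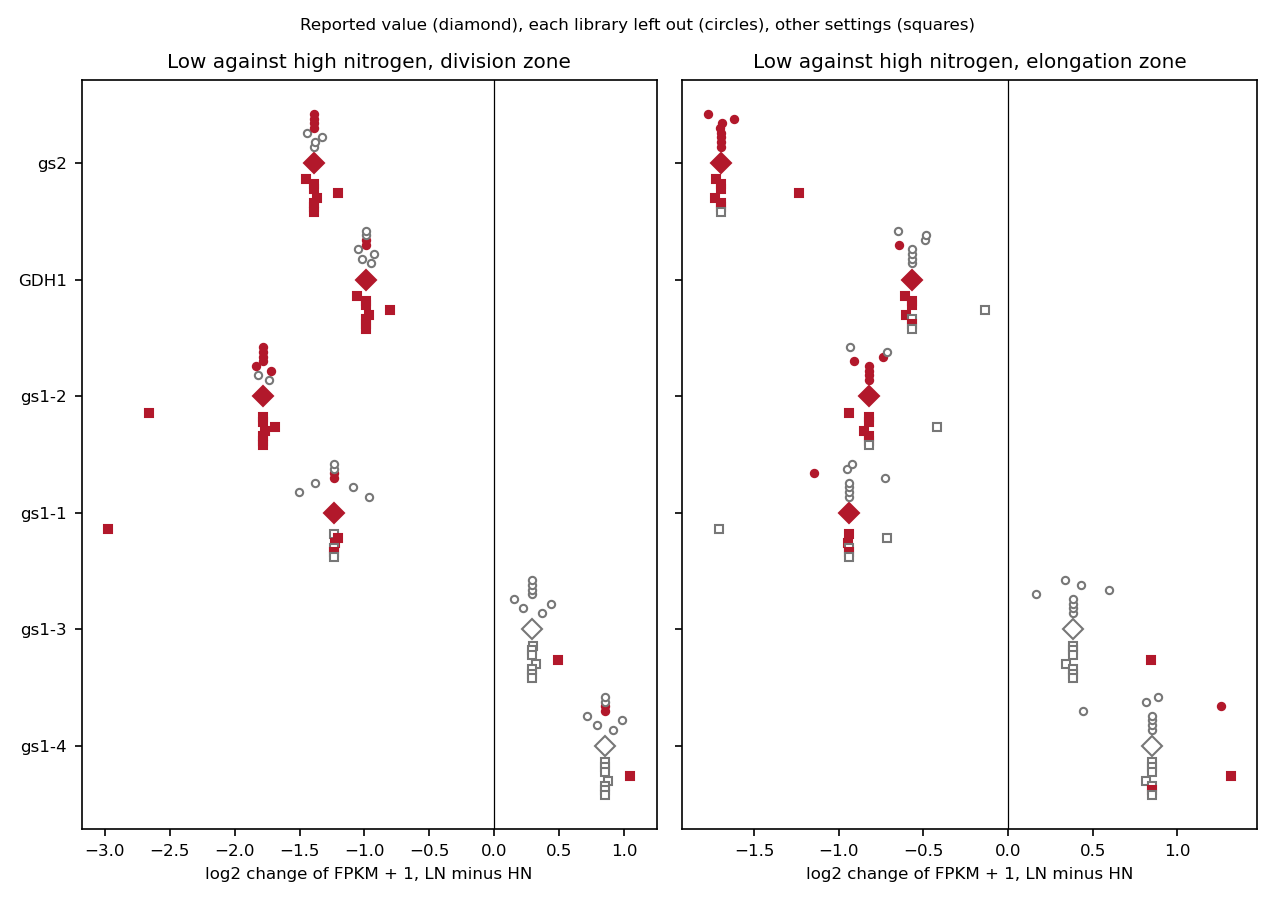
Difference of log2(FPKM + 1), low minus high nitrogen, for 6 loci in the division zone (left) and elongation zone (right): diamonds show the reported fit, circles the fits with 1 of the 8 libraries left out and squares the other settings; filled symbols have an adjusted p under 0.05, and symbols are spread vertically only to be seen. The symbols of gs2, GDH1, gs1-2 and gs1-1 lie below 0 and those of gs1-3 and gs1-4 above 0 under each setting run, and many of the circles are open.

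Whether the response to nitrogen differed between the zones was tested by the difference of the 2 changes. None of the 6 members and none of the 5 further loci was called (limma, with 0.283% of all loci called). An unadjusted p under 0.05 was seen for 0 members and 1 further locus, against 4454 of all 24706 loci tested. For gs2 the elongation minus the division change was -0.31, with a 95% interval of -0.75 to 0.13, and for GDH1 it was 0.42, with an interval of -0.05 to 0.88. The further locus with an unadjusted p under 0.05 was gs1-2, at 0.95 ± 0.22 (limma adjusted p = 0.136). Without HN elongation replicate 1 the difference of XLOC_032277 was called, at -1.66, the HN elongation group then being the library at 20.2 FPKM. That fit called a much larger share of all loci than the reported one, so the call is not particular to this locus.

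Between the zones, gs2, gs1-2, gs1-3, gs1-4 and gs1-5 rose where cells lengthen at each nitrogen supply, whereas gs1-1 was called at neither and GRMZM5G885867, the neighbour of gs2, fell at low nitrogen. At high nitrogen 3 of 6 members rose from the division to the elongation zone and 0 fell, against 22.1% of all loci rising, 19.7% falling and 41.7% called. The members were gs2 (3.07-fold, log2 change 1.59 ± 0.13, limma adjusted p = 0.000244), gs1-3 (2.04-fold, 1.002 ± 0.20, adjusted p = 0.00698) and gs1-5 (3.70-fold, 1.17 ± 0.22, adjusted p = 0.00659). Of the 5 further loci gs1-2 and gs1-4 rose (0.82 and 1.01), as did GRMZM2G023289 on the span of gs1-2. The gs1-4 call was lost with any of 7 libraries left out, all but HN elongation replicate 1 (adjusted p up to 0.161). That of gs1-3 was lost without HN division replicate 2 (adjusted p = 0.0530; range 0.00325 to 0.0530), and that of gs1-5 with the pseudocount of 0.1 (0.0898). XLOC_032277 lay just outside the threshold (1.26 ± 0.43, adjusted p = 0.0532) and was called without HN elongation replicate 1 (2.01, range of adjusted p 0.000756 to 0.179), and GRMZM2G085078 was called without HN elongation replicate 2 (1.14, range 0.0114 to 0.985). The median change of the 6 members was 1.08, and that of all loci tested -0.02. This comparison shares its HN libraries with the nitrogen comparisons.

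At low nitrogen 4 of 6 members rose and 0 fell, where 26.2% of all loci rose, 22.4% fell and 48.6% were called; the median change was 1.13 over the members and 0.07 over all loci. The 4 were gs2 (1.28 ± 0.13), gs1-3 (1.09 ± 0.20), gs1-5 (1.31 ± 0.22) and GRMZM2G085078 (1.16 ± 0.36, limma adjusted p = 0.0325). The last of these was called in 2 of the 8 fits with a library left out, HN elongation replicate 1 or 2, with adjusted p from 0.00326 to 0.166, and was missed with no filter (0.0510) and after either scaling (0.0807 and 0.0521). Of the further loci, gs1-2 (1.78 ± 0.16) and gs1-4 (1.01 ± 0.30) rose and GRMZM5G885867 fell (-0.85 ± 0.21, adjusted p = 0.0145). The gs1-4 call was made without HN elongation replicate 1 or 2 and missed without any of the other 6 libraries (adjusted p up to 0.151). That of GRMZM5G885867 was missed without LN division replicate 1 or 2 or LN elongation replicate 1 (0.0576, 0.0795 and 0.0987). GDH1 was called at neither supply, with changes of -0.16 ± 0.14 and 0.26 ± 0.14, nor was fgs1 (0.31 ± 0.26 and 0.44 ± 0.26).

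The marker lists were chosen with earlier results of these data known, so their counts are no independent check of the zone labels. All 4 markers of lengthening cells were higher in the elongation zone at each supply. Of all loci 22.1% rose there at high and 26.2% at low nitrogen. Of the markers of dividing cells, 36 of 41 were lower there at high and 39 of 41 at low nitrogen, against 19.7 and 22.4% of all loci. The count of 36 was 13 without HN division replicate 1 and 19 with the HN groups alone. The lengthening list was also lower under low nitrogen in the division zone, with a sum of 9.52 to 9.81 FPKM at high and 2.85 to 4.34 FPKM at low nitrogen. Of its loci 1 of 4 was called lower there, against 3.27% of all loci. That count was 0 without any one of the 4 division libraries and 3 without HN elongation replicate 1 or 2. Its part in the falls of gs2, gs1-1, gs1-2 and GDH1 there was not tested. The photosynthetic list rose at 14 of 15 loci at high and 12 of 15 at low nitrogen, and its part in the zone difference of gs2 was not tested. The markers of dividing cells also moved with nitrogen in the elongation zone, where 29 of 41 fell and 2 rose, against 12.5 and 9.86% of all loci. Their sum was 6370 to 12037 FPKM at high and 2235 to 2542 FPKM at low nitrogen. The count of 29 was 3 without LN elongation replicate 1, and 0 without LN elongation replicate 2 or with the elongation groups alone. Their part in the nitrogen results of that zone was not tested. Secondary wall cellulose synthases, markers of xylem, numbered 4 loci of which 2 were tested. CesA12 rose under low nitrogen in the elongation zone, from 6.501 and 5.34 to 14.5 and 15.3 FPKM, a call missed without LN elongation replicate 1 or with the elongation groups alone, and it rose between the zones at low nitrogen. The other, cesa10, was called in none of these 4 comparisons, with 101 and 78.1 FPKM in HN and 44.7 and 58.2 FPKM in LN division libraries. Their part in the results was not tested.

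Levels within a group fell in a steep order. At high nitrogen in the division zone gs1-4 stood first (222 ± 13.8 FPKM), followed by gs1-3 (44.8 ± 3.26), gs2 (34.5 ± 0.0148) and GDH1 (17.9 ± 0.644), each with libraries apart from the next. GRMZM2G085078 (11.3 ± 1.85) and fgs1 (9.33 ± 2.42) overlapped. In the LN division zone gs2 (12.6 ± 0.788) overlapped GRMZM2G085078 (11.7 ± 2.42). In the HN elongation zone gs2 (106 ± 0.329 FPKM) stood second, just above gs1-3 (91.6 ± 19.3) without overlap, and GRMZM2G085078, GDH1, XLOC_032277, fgs1 and gs1-2 overlapped in a chain between 18.7 and 9.06 FPKM. In the LN elongation zone gs1-3 (118 ± 5.48) was again above gs2 (32.1 ± 2.48).

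Other genes of the pathway were taken from symbol lists. Of 7 loci for nitrate and ammonium entry 3 were tested. Of these 1 fell in the division and 2 in the elongation zone, with 0 rising, where 3.27 and 12.5% of all loci fell. NIR, nitrite reductase, which makes ammonium in the plastid, measured 12.6 and 9.85 FPKM in HN and 3.39 and 3.93 FPKM in LN division libraries (-1.38 ± 0.28, limma adjusted p = 0.0420). Elongation libraries gave 25.6 and 32.8 against 12.8 and 6.98 FPKM (-1.52 ± 0.28). NNR1, a nitrate reductase, fell in the elongation zone from 10.6 and 18.5 to 3.91 and 1.52 FPKM (-2.09 ± 0.36). The division count was 0 without any one of the 4 division or 2 LN elongation libraries or with no filter, and the elongation count was 0 without LN elongation replicate 2 or with the elongation groups alone, and 1 without HN elongation replicate 2.

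For amino group transfer from glutamine and glutamate, 3 of 7 loci were tested. By limma 0 were called under low nitrogen in either zone, where 5.09 and 22.4% of all loci were called. That count therefore shows nothing particular to these loci. At an unadjusted p under 0.05 it was 1 in the division and 0 in the elongation zone. The counts over all 24706 loci tested were 5786 and 9879. The asparagine synthetase asn1 had the highest mean, with 58.5 and 53.1 FPKM in HN and 66.1 and 69.9 FPKM in LN division libraries (0.28 ± 0.13, limma adjusted p = 0.267), and 52.5 to 56.1 FPKM in the elongation libraries. For carbon skeletons and reductant, 7 of 8 loci were tested. In the division zone 0 were called, with 4 lower at an unadjusted p under 0.05. Over all 24706 loci tested, 5786 had such a p there, in either direction. In the elongation zone 3 fell, where 12.5% of all loci fell. The ferredoxin locus FDX1 (XLOC_030712) had the highest mean, with 143 and 132 FPKM in HN and 47.6 and 61.5 FPKM in LN division libraries (-1.33 ± 0.29, adjusted p = 0.0509, limma). It fell in the elongation zone from 835 and 1436 to 365 and 408 FPKM (-1.50 ± 0.29, adjusted p = 0.0163).

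A locus holding fdx2 and fdx5 (XLOC_030713), ferredoxins that like FDX1 carry electrons in the plastid, fell from 253 and 341 to 100.02 and 97.0 FPKM (-1.57 ± 0.24, limma adjusted p = 0.00922). It shares its span with FDX1, so reads of these 2 of the 3 called loci may not be separate. The ferredoxin-NADP reductase fnr1 fell from 30.1 and 50.3 to 16.3 and 13.3 FPKM (-1.35 ± 0.28). The count of 3 was 0 without LN elongation replicate 1 or 2 or with the elongation groups alone, 5 with the median ratio scaling, and 6 without HN elongation replicate 1. For the division zone, 3 loci of this list were called with either HN elongation replicate left out.

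Among 2073 tested loci with an informative name, the genes most like gs2 over the 8 libraries were IJ, RH3A and bsd2. Likeness was the root mean square difference of log2(FPKM + 1) after centring each gene, and was 0.140 for IJ, 0.146 for RH3A and 0.186 for bsd2. IJ is iojap, a gene known for leaf striping and plastid development, and bsd2 encodes a chaperone for assembly of Rubisco. For GDH1 the nearest were stm1 (0.144), NDL1 (0.147) and thiolase1 (0.149).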

How the data were processed

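Members and lists were chosen with earlier results of these data known. The authors deposited 1 table with a value per locus and library. The deposited values were taken to be FPKM, on the evidence of the numbers alone, since the file's header and the labels name none: values are not whole, and library totals run from 652957 to 1113553. The submitters' processing notes list TopHat2, edgeR and B73 RefGen_v3; their versions and roles, and any normalisation, are not stated. The 44070 lines gave 43110 loci. Positions are the table's, with starts written 1-based. Names came from RefSeq genes on Zm-B73-REFERENCE-NAM-5.0, matched by identifier or by symbol on the same chromosome, for 4 of the 7 member loci. No sequences were used here. Lists were matched on symbols and synonyms; A1, which carries FNR as a synonym, was left out. One marker list is not reported here.

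Loci with a group mean of 1 FPKM or more were tested in limma (two-sided, intensity trend) on log2(FPKM + 1). The model had 4 group means (residual degrees of freedom, 4), with adjustment over 24706 loci. The procedure was tested on simulated data. Named genes were each member, up to 3 called loci per pathway list and nitrogen comparison (with none called, the highest), and the 3 genes most like each member called under nitrogen. Loci on shared spans were added after their values were seen. Alternatives were a pseudocount of 0.1, no filter, a filter at 5 FPKM, scaling to equal totals or by median ratios, a fit of only the 2 groups compared, a replicate term and each library left out. Tools were limma 3.58.1 in R 4.3.3; tables and plots used pandas 2.3.3, numpy 2.4.6 and matplotlib 3.10.9 (Python 3.11.15).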

Additional observations from a re-analysis of the deposited data

How the results depend on the processing

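With 2 libraries per group, the count of members called turned on single libraries; where 1 was left out, the lone library of its group was assumed to vary like the other groups. With each library left out, the count ran from 0 to 3 for nitrogen in the division zone (2 reported), 1 to 4 in the elongation zone (2), 2 to 4 between zones at high nitrogen (3), 3 to 4 at low nitrogen (4) and 0 to 1 for the difference between the responses (0). It was 0 without any of the 4 division libraries, for nitrogen in the division zone. The share of all loci called also moved with the library left out, so nothing particular to the members can be read from these ranges. Fitted with only the elongation groups, the count in the elongation zone was 0, with 0.181% of all loci called. With the replicate block it was 1, because GDH1 was missed (adjusted p = 0.0510), and the block left the members' other counts at 2, 3, 4 and 0; gs1-1 was also missed in both zones (0.0730 and 0.0558), and NIR in the division zone, where the nitrate and ammonium list then had 0 calls. Deviations of same-numbered libraries correlated over 0.1 in 1 of 6 pairs of groups (r from -0.19 to 0.33 across loci), so the numbers were not taken as pairs. With the HN division numbers crossed, an alternative chosen after seeing the data, the counts were 2, 2, 3, 4 and 0. Scaling to equal totals gave 3 members called in the division zone, 1 higher and 2 lower, and 1 higher and 1 lower in the elongation zone, gs1-3 being the higher one. Between zones at high nitrogen it moved the median of all loci to -0.22 and the share of higher changes among those called from 52.9 to 40.8%. Of the fits of 55 single changes, 356 of 440 with a library left out and 384 of 417 others kept direction and side of the threshold. Changes not called as reported, 7, 7, 6, 4 and 11 of 11 loci in the 5 comparisons, count here when they stayed uncalled. A reported call was lost in 57 of the 440 and 20 of the 417 fits. The totals therefore overstate how often calls were kept.

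The changes that turned direction were not called as reported, and the cause was not tested. After scaling to equal totals, the nitrogen change in the elongation zone was 0.15 for XLOC_032277 and 0.056 for fgs1, the zone change of gs1-1 at high nitrogen was -0.046, and the difference between the responses was 0.27 for gs1-4. Over the libraries left out, the nitrogen change in the division zone ran from -0.16 to 0.23 for GRMZM2G085078 and from -0.072 to 0.108 for GRMZM5G885867, and that of XLOC_032277 in the elongation zone from -1.03 to 0.46. The zone change of gs1-1 at high nitrogen ran from -0.18 to 0.36. The difference between the responses ran from -0.41 to 0.40 for gs1-4, from -0.16 to 0.408 for fgs1, from -0.13 to 0.30 for gs1-3 and from -0.12 to 0.406 for gs1-5. Read depth is unknown, so values under 1 FPKM carry no counting interval.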

Other observations

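The balance between the glutamate synthase loci can be set within a library, where scaling between libraries cancels. The 3 loci of GRMZM2G085078 and GRMZM2G375064 together were 1.89 and 1.60 times the level of fgs1 in the HN division libraries and 2.94 and 3.21 times in the LN division libraries. The ratios were 2.29 and 3.37 in the HN and 4.29 and 4.15 in the LN elongation libraries, so the LN ratios lay above the HN ratios in each zone. Of the 4 loci in this ratio 3 were tested, and 0 of these were called under low nitrogen by limma (0 also at an unadjusted p under 0.05). Of all 24706 loci, 5.09% were called in the division and 22.4% in the elongation zone. At an unadjusted p under 0.05 these were 5786 and 9879 loci. Relative to gs2, GDH1 stood at 0.531 and 0.505 in HN and 0.676 and 0.6801 in LN division libraries, and at 0.142 and 0.158 against 0.322 and 0.328 in the elongation zone. These ratios were chosen after the values were seen and have no test.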
